A study of Mus musculus with 12 samples.

Results

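Tcf7-positive CD8+ T cells from MC38 tumors were taken as barcodes with UMIs (counted molecules) of the T cell receptor complex, of CD8 and of Tcf7, and with none of Cd4, Adgre1, Csf1r, Havcr2 or Mki67. Of 140639 barcodes, 128912 passed limits on quality (over 200 genes, under 5000 genes, no more than 10% of UMIs mitochondrial). Of these, 14115 had at least 1 UMI of Cd3d, Cd3e or Cd3g, 6238 of those also had 1 of Cd8a or Cd8b1, and 3870 were left once Cd4, Adgre1 and Csf1r had to be at 0. These 3870 are called CD8-gated cells. Tcf7 was found in 400 of them, and 316 of the 400 also lacked Havcr2 and Mki67, which gave 316 Tcf7-positive cells and 3554 remaining CD8-gated cells.

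MC38 is a mouse colon adenocarcinoma line, and tumors were grown under the skin of C57BL/6 mice. The 12 samples form 4 groups of 3: vehicle for 7 days, PF-06821497 for 7 days, vehicle for 16 days and PF-06821497 for 16 days. PF-06821497 (EZH2i) is an inhibitor of EZH2, the histone methyltransferase of polycomb repressive complex 2, and was given daily at 100 mg/kg from day 10 or day 1 after implantation. All tumors were taken on day 17, CD45+ cells were enriched with magnetic beads, and single-cell libraries of the 3' ends of transcripts were made. The matrix marks each barcode with a library number from 1 to 12, and the labels do not tie these numbers to mice or treatments. All libraries were therefore handled as a single pooled sample, EZH2i was not compared with vehicle, and no p-value is given.

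TCF-1, the product of Tcf7, is a transcription factor of naive, memory and stem-like CD8+ T cells. In tumors, cells with TCF-1 and without the inhibitory receptor TIM-3, the product of Havcr2, are known as a reserve that renews itself and gives rise to effector and exhausted cells. Cells that keep TCF-1 commonly also keep receptors for entry into and exit from lymph nodes and carry little of the cytotoxic machinery.

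The libraries held from 4256 to 38110 barcodes and from 21649947 to 158760328 UMIs. Libraries 1 to 6 carried transcripts of the Y chromosome (Ddx3y, Eif2s3y, Kdm5d and Uty together at 128 to 209 CPM, counts scaled to a library total of 1000000). Xist was at most at 0.0592 CPM in these libraries, whereas the methods name female mice. Libraries 7 to 12 had no UMI of these Y genes and Xist at 658 to 870 CPM. Library 4 stood apart, with 0.0797% of its kept cells in the CD8 gate against 1.53 to 6.49% across libraries 7 to 12, and it held 9 CD8-gated cells and 1 Tcf7-positive cell. Folds within libraries 1 to 6 and 7 to 12 are therefore given for some of the genes below, and without library 4 the fold of 1 of 89 named genes left its 95% interval, that of S100a8, at 1.95. Of the barcode sequences kept, 1877 were found in more than 1 library, 172 of them in libraries 5 and 6, but the 316 Tcf7-positive cells shared none among themselves and 7 of them shared one with another kept cell.

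The Tcf7-positive cells held 1229153 UMIs in all, from 647 to 19868 a cell, with a pooled median of 3040 against 2928 in the remaining cells. Within every library, however, the median of the Tcf7-positive cells was the lower. It was 2157 against 2937.5 UMIs in library 2, 5479 against 5696.5 in library 8 and 5083 against 8457.5 in library 12. Of the genes of the T cell receptor and its signaling, which were not part of the rule, 15 were compared and none differed 2-fold, with a median fold of 0.9855. Both groups were chosen by UMIs of CD3 and CD8 genes, so this fold does not test T cell identity. Foxp3, the factor of regulatory T cells, had no UMI in the 316 cells, and neither did the B cell genes Ms4a1 and Pax5. Other genes of these marker lists were present. At least 1 UMI of the 10 B cell markers was found in 23.7% of the cells, mostly of the immunoglobulin genes Ighm (57 UMIs, fold 1.20) and Igkc (48 UMIs, fold 0.513), and Cd79a had 4 UMIs in 1 cell. At least 1 UMI of the 8 CD4 and regulatory T cell markers was found in 45.6%, mostly of Ctla4 and Ikzf2, which CD8+ T cells can also express. Tcf7 itself was found in 2 of 224 B-gated cells (0.893%) and in 0.520% of 62653 macrophage-gated cells, whose median depth was 1428.5 and 7633 UMIs. These shares are read as background, and 400 of 3870 CD8-gated cells had Tcf7 at a median depth between these values (10.3%).

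Some Tcf7-positive barcodes also carried transcripts of other cell types. Over 0.5% of the UMIs lay on macrophage and monocyte markers in 38 of the 316 cells (12.03%) and in 19.8% of the remaining cells. The same limit was passed for neutrophil markers by 6 cells (1.90% against 0.675%) and for dendritic cell markers by 5 cells (1.58% against 6.95%), and no cell passed it for B cell markers. At least 2 UMIs of dendritic cell markers other than H2-Ab1 were present in 20 cells (6.33%) and in 7.71% of the remaining cells. With all such barcodes left out of both groups, 260 Tcf7-positive and 2611 remaining cells were left. Folds over these cells are given for some of the genes that crossed 2-fold there.

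Tcf7-positive cells made up 8.17% of the CD8-gated cells of all libraries (316 of 3870, exact 95% interval 7.32 to 9.07%). Across the 12 libraries the share ran from 2.23% to 35.5%, with a median of 9.65%. Library 6, with the most CD8-gated cells, gave the lowest share (25 of 1121), and libraries 10 (27 of 76) and 12 (17 of 51, 33.3%) gave the highest. The intervals of libraries 6 and 10, picked as the lowest and highest of the 12, were 1.45 to 3.28% and 24.9 to 47.3%. They cover counting of cells only, not the spread between mice. Summed, libraries 1 to 6 held 5.83% and libraries 7 to 12 held 13.1%, but within each set single libraries lay on both sides of these values, at 2.23 to 15.1% and at 4.82 to 35.5%. Part of the denominator is set by the rule, since Havcr2- and Mki67-positive cells cannot be members. Among cells lacking both, the share was 12.04%, from 3.15 to 46.0% over the libraries. Depth also enters, since a share of cells with a UMI depends on the UMIs read: the median UMI count of Tcf7-positive cells ran from 1443 in library 6 to 5479 in library 8. Library 10, with the highest share, had the next lowest median, 1957 UMIs. Over all CD8-gated cells, which form the denominator, the median was 1797 UMIs in library 6, 2486 in library 10 and 7600 in library 12. The part of depth in the spread of shares between libraries was not tested.

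**Figure D1:**
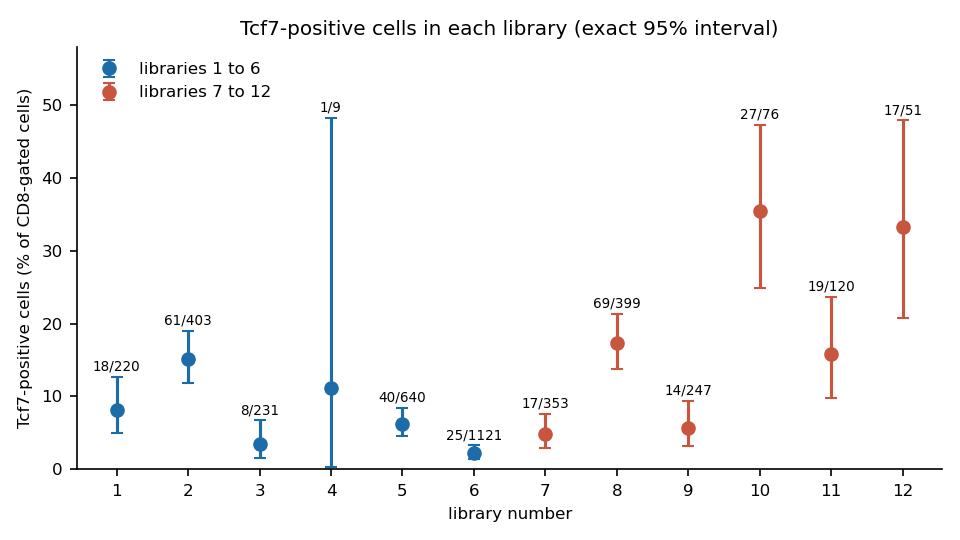
Share of Tcf7-positive cells among CD8-gated cells (y axis, percent) in each of the 12 libraries (x axis), with exact 95% binomial intervals and the cell counts above each. Shares run from 2.23% in library 6 to 35.5% in library 10, and library 4 rests on 9 cells.

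Genes outside the rule were then compared between the Tcf7-positive and the remaining CD8-gated cells. For each gene, the fold is the number of UMIs in the Tcf7-positive cells over the number expected if each library's Tcf7-positive cells had the rate of that library's remaining CD8-gated cells. Of 7485 genes at 10 CPM or more over all CD8-gated cells, 49 were at least 2-fold higher (0.655%) and 368 at least 2-fold lower (4.92%). The Tcf7-, Havcr2- and Mki67-negative cells, 2309 of the remaining cells, differ from the Tcf7-positive cells by the rule in Tcf7 alone. Against them, 70 genes were at least 2-fold higher (0.935%) and 171 at least 2-fold lower (2.28%). The intervals beside folds cover counting of UMIs only. UMIs of 1 cell are not independent, so the intervals are too narrow, and the spread between mice is in none of them.

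Transcription factors of memory and naive T cells mostly lay above 1 in Tcf7-positive cells, and few of them by 2-fold. Of 15 such factors compared, 3 were at least 2-fold higher, against 0.655% of all genes compared, and none was 2-fold lower, against 4.92%. A fold above 1 was found for 14 of them, with a median fold of 1.53 against 0.9555 over all genes compared. Klf2, which drives the genes of lymph node recirculation, stood at 342 CPM against 133 CPM expected, a fold of 2.56 (95% interval 2.28 to 2.88). Its level in the 10 libraries with at least 10 Tcf7-positive cells ran from 91.9 to 611 CPM with a median of 366 CPM, and from 60.9 to 252 CPM with a median of 132 CPM in the remaining cells. Klf2 was the higher in the Tcf7-positive cells of all 10 libraries, although the ranges of the 2 groups overlap between libraries. Satb1, a chromatin organizer of T cells, followed with 308 CPM against 133 CPM (fold 2.32, 2.06 to 2.62), again higher in 10 of 10 libraries. Klf3, a repressor related to Klf2, had 182 CPM against 83.4 CPM (fold 2.18, 1.87 to 2.55), also higher in 10 of 10.

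Other factors of this group did not reach 2-fold. Foxp1, a keeper of T cell quiescence, had a fold of 1.95, which was 2.19 without the barcodes of other cell types and 2.11 within libraries 1 to 6. The folds were, for Lef1, the closest relative of TCF-1 in T cells, 1.70, for Bach2, a repressor of effector genes, 1.58, and for Foxo1, the activator of Klf2 and Il7r, 1.53. The counting intervals of these 4 factors lay above 1, from 1.10 to 2.26 for Bach2, but Bach2 was the higher in 5 of 10 libraries and the lower in 5, and against the Tcf7-, Havcr2- and Mki67-negative cells its interval, 0.914 to 1.95, included 1. The sets of libraries differed, with Lef1 at 2.91 within libraries 1 to 6 and 1.44 within libraries 7 to 12, Bach2 at 2.44 and 1.23, Klf3 at 3.09 and 1.95, and Eomes at 1.905 and 0.974. Eomes (1.11, 0.953 to 1.301) and Myb (0.990, 0.665 to 1.475), both tied to memory and stem-like cells, were not separable from 1 by counting error over all libraries. Lef1 was found in 64 of the 316 cells (20.3%) and in 9.48% of the remaining cells, against 1.79% of B-gated and 0.570% of macrophage-gated cells. Against the Tcf7-, Havcr2- and Mki67-negative cells the folds were smaller, at 2.07 for Klf2, 1.84 for Satb1 and 1.67 for Klf3, and 1 factor of 15 stayed at 2-fold or more.

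Genes of lymph node homing and quiescence gave 5 of 15 at least 2-fold higher, against 0.655% of all genes compared. None was 2-fold lower, against 4.92%, and the median fold was 1.48 against 0.9555. Against the Tcf7-, Havcr2- and Mki67-negative cells, 3 of the 15 were at least 2-fold higher, against 0.935% of all genes compared. The summed level of this list was higher in the Tcf7-positive cells of 10 of 10 libraries, at 4153 to 6197 CPM against 2384 to 4665 CPM. Ccr7, the chemokine receptor for lymph node entry, had 269 CPM against 89.4 CPM (fold 3.01, 2.64 to 3.43). S1pr1, the receptor by which T cells leave tissue along sphingosine 1-phosphate, had 83.8 CPM against 31.1 CPM (2.69, 2.13 to 3.40). Il7r, the receptor chain for the survival cytokine IL-7, was detected more often than Ccr7 and S1pr1. It was found in 198 of 316 cells (62.7%) against 36.2% of the remaining cells, with a fold of 2.29 (2.095 to 2.503). Tob1, an inhibitor of T cell proliferation, had a fold of 2.09 (1.61 to 2.72), which was 1.955 without library 2, 1.93 without the barcodes of other cell types, and 2.61 within libraries 1 to 6 against 1.80 within libraries 7 to 12.

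These genes did not behave alike across libraries. S1pr1 was the higher in 10 of 10 libraries, at 21.1 to 193 CPM with a median of 61.9 CPM against 12.99 to 48.1 CPM with a median of 26.5 CPM. Il7r and Ccr7 were the higher in 9 of 10. S1pr1 had a fold of 4.86 within libraries 1 to 6 and of 2.02 within libraries 7 to 12, and its fold was 4.05 without library 8. Ccr7 is also a gene of mature dendritic cells: 38.7% of its 331 UMIs came from 5 of the 74 cells that had any, and its fold was 2.36 without the barcodes that carried transcripts of other cell types. Ly6c2, a surface antigen of memory CD8+ T cells, had 827 CPM against 444 CPM (fold 1.86) and was the higher in 10 of 10 libraries. Btg1, an antiproliferative gene, had a fold of 1.38, also in 10 of 10. Of the costimulatory receptors of early memory cells, Cd27 had a fold of 0.967 and Cd28 of 1.23 (1.10 to 1.37), the latter the higher in 8 of 10 libraries and at 1.63 within libraries 1 to 6 and 1.12 within libraries 7 to 12.

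**Figure D2:**
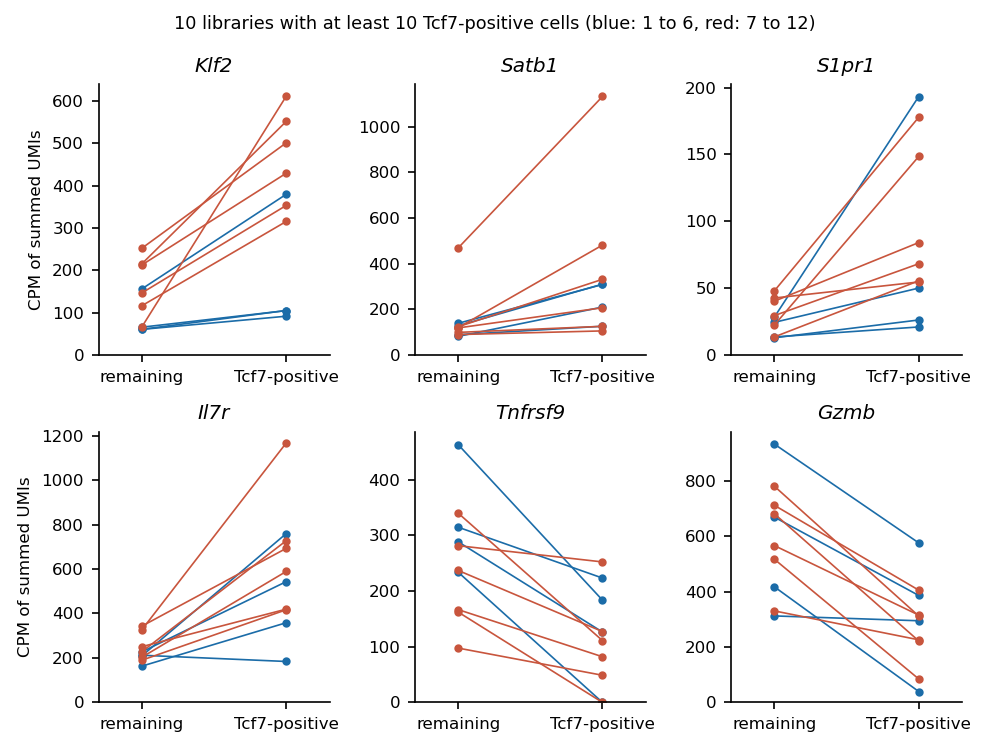
Level in CPM of summed UMIs (y axes) of 6 genes in the remaining CD8-gated cells and in the Tcf7-positive cells of the same library, 1 line for each of the 10 libraries with at least 10 Tcf7-positive cells. Klf2, Satb1 and S1pr1 are higher and Tnfrsf9 and Gzmb lower in the Tcf7-positive cells of all 10 libraries, and Il7r is higher in 9.

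The adhesion gene Emb, which encodes embigin, was singled out after its values were seen, for its level and the number of cells that had it. It had 822 CPM against 332 CPM (fold 2.48, 2.30 to 2.67), was present in 250 of 316 cells (79.1%, against 48.5% of the remaining cells) and was the higher in 10 of 10 libraries, at 485 to 1115 CPM against 241 to 539 CPM. With the barcodes of other cell types left out, its fold was 2.45. Emb was also found in 46.8% of the macrophage-gated cells, but in 8.48% of the B-gated cells.

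The bases upstream of the starts of the higher genes were searched for motifs of the factor families named above. RefSeq promoters of GRCm38.p6 were found for 41 of the 49 higher genes, and the 250 bases before each start were read on both strands. CTTTGA, the core of the TCF and LEF motif, was present for 6 of the 41 genes (14.6%), for 12.45% of the 5954 compared genes with such promoters and for 13.8% of all 32851 promoters. GGGTGTG, a KLF motif, was present for 3 of the 41 (7.32%, against 8.47% and 6.93%), and TGTTTAC, a FOXO motif, for 1 (2.44%, against 2.84% and 3.17%). The shares lie near both backgrounds, and 1 gene more or less is 2.44%. None of the 3 motifs contains another. A sequence is shown for Tcf7, Satb1 and Emb, the defining gene and 2 higher genes with a match, 5′ to 3′ on the strand of the gene, with the matched motif in capitals. The Tcf7 stretch precedes the second of its 2 RefSeq starts, on the minus strand at chr11:52282596-52282845, inside the gene as GENCODE M21 gives it, and holds GGGTGTG. The Satb1 stretch precedes the first of 5 starts, on the minus strand at chr17:51833291-51833540, next to the gene's end at 51833290, and holds the reverse complement CACACCC. The Emb stretch precedes its only RefSeq start, on the plus strand at chr13:117220323-117220572, inside the span of the gene in GENCODE, and holds the reverse complement TCAAAG.
Tcf7: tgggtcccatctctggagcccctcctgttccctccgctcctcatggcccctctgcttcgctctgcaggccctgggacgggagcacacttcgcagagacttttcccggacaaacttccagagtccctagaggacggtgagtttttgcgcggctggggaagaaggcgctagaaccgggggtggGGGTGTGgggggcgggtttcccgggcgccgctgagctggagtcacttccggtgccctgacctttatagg
Satb1: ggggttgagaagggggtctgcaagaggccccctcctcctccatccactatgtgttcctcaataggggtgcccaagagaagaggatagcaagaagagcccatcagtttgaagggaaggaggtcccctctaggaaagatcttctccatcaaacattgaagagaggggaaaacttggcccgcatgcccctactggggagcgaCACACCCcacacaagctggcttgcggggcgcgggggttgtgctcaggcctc
Emb: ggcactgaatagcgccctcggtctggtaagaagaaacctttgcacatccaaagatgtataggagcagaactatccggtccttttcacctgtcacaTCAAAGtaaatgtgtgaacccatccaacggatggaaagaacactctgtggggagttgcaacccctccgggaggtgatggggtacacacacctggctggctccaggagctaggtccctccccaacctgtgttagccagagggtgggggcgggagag

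Genes of precursor exhausted T cells, the Tcf7-positive cells known from chronic infection and tumors, did not move as a group. Of 14 compared, 2 were at least 2-fold higher, against 0.655% of all genes compared, and 1 was at least 2-fold lower, against 4.92%. Of the 14, 8 lay above 1, where 3234 of all 7485 genes compared did, and the median fold was 1.22 against 0.9555. Slamf6, the surface receptor by which such cells are often sorted, had 78.9 CPM against 43.2 CPM (fold 1.83, 1.45 to 2.30) and was the higher in 9 of 10 libraries, at 3.88 within libraries 1 to 6 and 1.49 within libraries 7 to 12. Tnfsf8, the ligand of CD30, had a fold of 2.18 (1.52 to 3.13), which was 1.92 without library 8. Itgb1 (1.61) and Cxcr3 (1.503), an integrin chain and a receptor for chemokines of inflamed tissue, were also higher, in 9 and 8 of 10 libraries. Cd200, the other gene past 2-fold, rested on 12 cells, and its fold of 2.55 was 0.358 without the barcodes that carried transcripts of other cell types and 1.94 without library 11. Cxcr5 lay under 10 CPM over all CD8-gated cells and was not compared.

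Nrgn was the gene of this list past 2-fold lower, and Pdcd1, Tox and Xcl1 lay below 1 without reaching 2-fold. Pdcd1, which encodes PD-1, had 181 CPM against 282 CPM (fold 0.642, 0.560 to 0.737), in 100 of 316 cells (31.6%) against 46.8% of the remaining cells. Tox, the factor that sustains exhaustion, had a fold of 0.676 (0.560 to 0.817). The chemokine Xcl1 had 236 CPM against 450 CPM (0.524, 0.465 to 0.591, and 0.489 without the barcodes of other cell types) and Nrgn, a calmodulin-binding protein, 19.5 CPM against 90.9 CPM (0.215, 0.143 to 0.322). Pdcd1 and Tox were lower in 7 of 10 libraries, so single libraries did go the other way, whereas Nrgn was lower in 10 of 10.

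Most effector genes lay below 1 in Tcf7-positive cells, and few of them by 2-fold. Of 23 effector and cytotoxic genes compared, 3 were at least 2-fold lower, against 4.92% of all genes compared. None was 2-fold higher and 2 lay above 1, with a median fold of 0.781, where 4251 of all 7485 genes compared lay below 1. Their summed level was 12734 CPM in the Tcf7-positive cells, of which Ccl5 made up 7806 CPM, and 12763 CPM in the remaining cells. These are sums over libraries that enter both groups in unequal parts, and within libraries the sum was the higher in the Tcf7-positive cells of 4 of 10. Gzmf, a granzyme of strongly activated killer cells, had 30.1 CPM against 380 CPM (fold 0.0791, 0.0573 to 0.109), and its 37 UMIs came from 6 cells. Gzmc had a fold of 0.302 (0.230 to 0.397), with 53 UMIs in 5 cells, and without library 5 its fold was 0.0204. Neither had a UMI in the Tcf7-positive cells of libraries 7 to 12. Gzmd, another granzyme gene, had no UMI where 41.9 were expected, at least 14.0-fold lower with 3 counts as the floor. It was the lower in 6 of 10 libraries. Its matched level was 34.1 CPM in the remaining cells but 12.8 CPM in the Tcf7-, Havcr2- and Mki67-negative cells. The mast cell protease gene Mcpt1 also had no UMI, at least 6.79-fold lower, but it was the lower in only 2 of 10 libraries, with a median of 0 in the remaining cells. Its matched level in the Tcf7-, Havcr2- and Mki67-negative cells was 2.72 CPM, too low for a bound.

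Prf1, which encodes perforin, had 76.5 CPM against 168 CPM (fold 0.456, 0.370 to 0.562), and its fold was 0.532 without library 11 and 0.515 without the barcodes of other cell types. Gzmb, the main granzyme of cytotoxic T cells, had 342 CPM against 664 CPM (0.516, 0.467 to 0.570) and was lower in 10 of 10 libraries, at 39.4 to 577 CPM with a median of 304 CPM against 313 to 934 CPM with a median of 618 CPM. It was nevertheless present in 108 of the 316 cells (34.2%), against 47.7% of the remaining cells and 2.68% of B-gated cells. Gzma had a fold of 0.519, Ccl4 of 0.593 and Nkg7, a granule protein, of 0.689, the last lower in 10 of 10 libraries. Without the barcodes of other cell types Gzma (0.473), Gzmb (0.439) and Ccl4 (0.413) were past 2-fold lower. So was Ccl3 (0.304), which stood at 0.977 with all barcodes, where 5 cells gave 81.05% of its UMIs. Ifng had a fold of 0.551, which was 0.274 without library 8, and 0.284 within libraries 1 to 6 against 0.896 within libraries 7 to 12. Gzmk, the granzyme of early effector memory cells, stood at 272 CPM against 285 CPM (0.958, 0.853 to 1.08), and Fasl, a death ligand, at 1.09 (0.932 to 1.27). In shares pooled over libraries, unlike the folds, Gzmk was found in 38.0% of the Tcf7-positive and 27.2% of the remaining cells. Those of Ccl5 were 88.6% and 75.2%. Ccl5, a chemokine of memory and effector cells, had a fold of 0.889 over all libraries, of 1.88 within libraries 1 to 6 and of 0.766 within libraries 7 to 12, so its direction differed between the sets, and its fold was 1.45 without library 8. Against the Tcf7-, Havcr2- and Mki67-negative cells, 5 of the 23 were at least 2-fold lower, among them Gzma at 0.390 and Gzmb at 0.496.

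**Figure D3:**
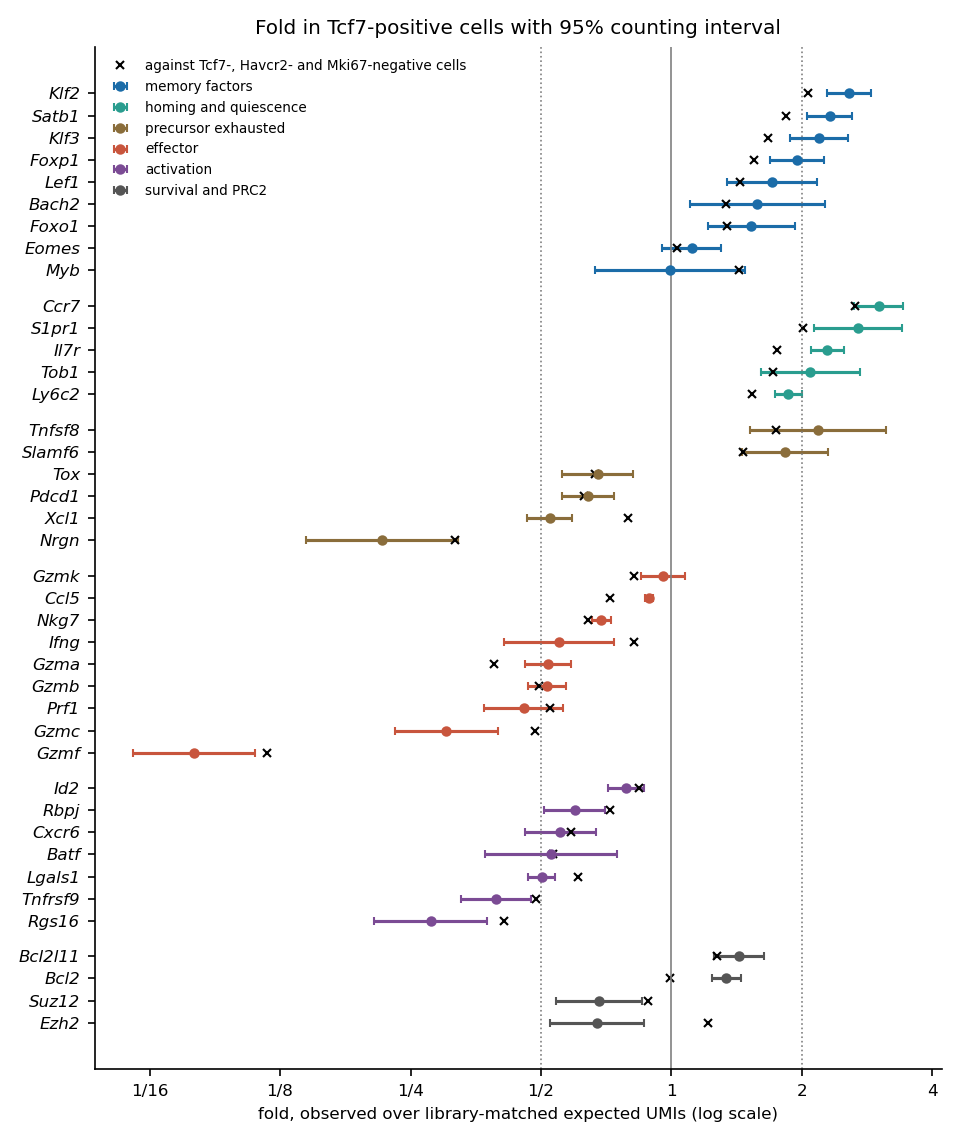
Fold of named genes in Tcf7-positive cells (x axis, log scale; points with 95% counting intervals, colored by role), with crosses for the fold against Tcf7-, Havcr2- and Mki67-negative cells. Dotted lines mark 2-fold. Ccr7, S1pr1, Klf2, Satb1, Il7r, Klf3, Tnfsf8 and Tob1 lie to the right of the upper line, and Gzmf, Nrgn, Rgs16, Gzmc, Tnfrsf9 and Prf1 to the left of the lower one.

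Genes of activation and residence in tissue did not move as a group. Of 19 tissue residence genes and chemokine receptors compared, 1 was at least 2-fold lower, against 4.92% of all genes compared. None was 2-fold higher and 10 lay above 1, where 3234 of all 7485 genes compared did. The median fold of the list was 1.006. Single genes stood lower. Tnfrsf9, which encodes the costimulatory receptor 4-1BB and is induced by antigen, had 95.2 CPM against 242 CPM (fold 0.394, 0.327 to 0.474). It was lower in 10 of 10 libraries, with at most 252 CPM and a median of 119 CPM against 97.7 to 463 CPM and a median of 260 CPM, and was found in 15.5% of the Tcf7-positive and 40.5% of the remaining cells. Of 10 costimulatory receptors compared it was the only one past 2-fold, where 4.92% of all genes compared were 2-fold lower. The median fold of the list was 1.10. Rgs16, a brake on chemokine receptor signaling, had a fold of 0.278 (0.206 to 0.375) and was lower in 10 of 10 libraries. Lgals1, which encodes galectin-1, had 622 CPM against 1239 CPM (0.502, 0.466 to 0.540, and 0.460 without the barcodes of other cell types), lower in 10 of 10, and Cxcr6, a receptor that keeps T cells in tissue, had 95.2 CPM against 172 CPM (0.554, 0.459 to 0.669). Cd44 (0.993), Itgae (0.985) and Cd69 (1.26), other genes of activation and residence, were within 1.5-fold of the expected level, although Cd69 stood at 1.90 without library 8 and at 1.99 within libraries 1 to 6.

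Among 12 inhibitory receptors compared, 1 was at least 2-fold lower, against 4.92% of all genes compared. The median fold was 0.780, and 0.858 against the Tcf7-, Havcr2- and Mki67-negative cells. The lower gene was Cd244, which encodes the receptor 2B4, at 0.233 (0.104 to 0.525) with 6 UMIs, and at 0.261 against those cells. Lag3 had 48.8 CPM against 88.4 CPM (0.552, 0.425 to 0.718) and Ctla4 118 CPM against 165 CPM (0.716, 0.603 to 0.850). Of 19 factors of effector and exhausted cells none passed 2-fold and 3 lay above 1, with Batf at 0.527, Rbpj at 0.598, Irf8 at 0.637 and Id2 at 0.785. Without the barcodes of other cell types Batf (0.473), Rbpj (0.488) and Irf8 (0.313) were past 2-fold lower, and so was Lag3 (0.419). Among 19 cytokine receptors, Il7r was the higher and Il12rb1, a receptor chain for IL-12, the lower gene past 2-fold (0.466, 10 UMIs, and 0.517 without library 12). Il2rb, shared by the receptors for IL-2 and IL-15, had 309 CPM against 444 CPM (0.697, 0.628 to 0.774), while Il15ra had a fold of 1.92 (1.36 to 2.70).

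The BCL2 family and the polycomb subunits, which bear on survival and on the target of the inhibitor, showed no 2-fold difference. Bcl2, which blocks apoptosis, had 641 CPM against 480 CPM (fold 1.34, 1.24 to 1.44), and Bcl2l11, which encodes the pro-apoptotic protein BIM, had 216 CPM against 151 CPM (1.43, 1.25 to 1.64), both the higher in 9 of 10 libraries. Against the Tcf7-, Havcr2- and Mki67-negative cells the fold of Bcl2 was 0.990 and that of Bcl2l11 1.27. Mcl1 had a fold of 1.25, Bcl2l1 of 0.639 and Bax of 0.722, and none of 11 family members passed 2-fold. Ezh2, the target of the inhibitor, had 55.3 CPM against 82.3 CPM (0.672, 0.524 to 0.862), but its fold was 1.21 against the Tcf7-, Havcr2- and Mki67-negative cells. Suz12, another subunit of the complex, had a fold of 0.681 and, against those cells, of 0.885, and the intervals of Ezh1 (1.02) and Eed (1.18) included 1. None of 18 subunits compared passed 2-fold.

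The rule itself fixed the cell cycle. Mki67 had to be at 0, and 19 of 23 cell cycle genes compared were at least 2-fold lower, such as Top2a at 0.136 and Stmn1 at 0.157. Against the Tcf7-, Havcr2- and Mki67-negative cells none of the 23 was, with a median fold of 0.786. Ribosomal proteins (26 compared, median fold 1.09), immediate early genes (17, 1.09), interferon-stimulated genes (18, 1.00) and heat shock genes (11, 0.936) had no member past 2-fold. The 8 GIMAP genes, small GTPases of resting lymphocytes, all lay above 1 without reaching 2-fold, with Gimap3 at 1.40 and Gimap6 at 1.37, and their summed level was the higher in 10 of 10 libraries. Of all 7485 genes compared, 3234 lay above 1. The median fold of the GIMAP genes was 1.21, and 1.04 against the Tcf7-, Havcr2- and Mki67-negative cells.

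Many of the largest folds in the whole comparison belonged to genes of myeloid and dendritic cells and rested on few barcodes. Il4i1 (fold 11.03), Fscn1 (6.11), Il12b (4.41), Trem1 (3.56), Cxcl3 (3.56), Ccl22 (3.25), Clec4e (3.10) and Fabp5 (3.03) were among the 10 highest, with Tbc1d4 (3.29), a regulator of glucose transport, and Ccr7. Fscn1, Ccl22 and Il12b are genes of mature dendritic cells, and Cxcl3, Trem1 and Clec4e of activated myeloid cells. In 23 of the 49 higher genes, 5 cells gave 50% or more of the UMIs: 75.0% for Fscn1, found in 13 cells, and 97.7% for Cxcl3, found in 9. Without the barcodes that carried transcripts of other cell types, Fscn1 stood at 1.09, Cxcl3 at 0.995, Fabp5 at 0.787 and Tbc1d4 at 2.14, and Il12b and Ccl22 had no UMI left. Fscn1 and Ccl22 are themselves among the markers by which barcodes were left out, so the fall of their folds was set by that choice. Trem1 stood at 1.69, Clec4e at 0.631 and Il4i1 had a fold of 11.6 at 6.196 CPM against 0.533 CPM. Over all CD8-gated cells Il4i1 stood at 10.04 CPM, just inside the limit of 10 CPM, which it passed through its level in the Tcf7-positive cells (48.0 CPM against 4.35 CPM). Single libraries weighed on these folds: without library 11 that of Il4i1 was 4.86, of Fscn1 3.15, of Il12b 2.32 and of Fabp5 1.94, without library 8 that of Trem1 was 1.54 and of Cxcl3 2.27, without library 6 that of Il12b was 8.23, and without library 10 that of Cxcl3 was 6.90. Within libraries 1 to 6 and 7 to 12 the fold of Il4i1 was 4.19 and 28.1, that of Fscn1 2.75 and 14.9, and that of Fabp5 1.61 and 4.78. Without the barcodes of other cell types, 7303 genes were compared, of which 47 were at least 2-fold higher and 438 at least 2-fold lower. Only 21 genes were at least 2-fold higher both with and without those barcodes. Among the highest folds without them were those of Cmah (3.25), an enzyme of sialic acid synthesis that lay under 10 CPM over all CD8-gated cells, Klf2 (3.004) and S1pr1 (2.81).

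Of the marker lists of other cell types, those of macrophages and monocytes summed to 1196 to 8011 CPM in the Tcf7-positive cells and 1627 to 11372 CPM in the remaining cells of the 10 libraries, with 16 genes compared, none 2-fold higher and 2 lower, Spp1 (0.337) and Arg1 (0.453, 0.544 without library 1 and 0.764 without the barcodes of other cell types). Neutrophil markers summed to 0 to 1578 CPM against 68.7 to 1756 CPM, and S100a8 alone of 3 compared was 2-fold higher (2.29), with 93.7% of its UMIs in 5 cells and a fold of 0.874 without the barcodes of other types and of 1.74 without library 2. S100a8, Arg1 and, among the dendritic cell markers below, Itgax are markers by which those barcodes were chosen, so these changes were in part set by that choice. Dendritic cell markers summed to 29.3 to 2192 CPM against 231 to 2622 CPM, with Clec9a and Cd209a at 0. Of 6 compared, Ccl22 and Fscn1 were 2-fold higher and Itgax (0.451, and 0.657 without the barcodes of other types) and Xcr1 (0.0867, 1 UMI) 2-fold lower. Their part in the folds of Ccr7, Cd200 and Fabp5 was tested only by leaving those barcodes out. Among gamma delta T cell markers, Tcrg-C2 was the only gene compared, at 48.8 CPM against 115 CPM (0.425, 0.327 to 0.552), with a fold of 0.534 without library 8. Of the NK and innate lymphoid markers 4 were compared, and all lay above 1 without reaching 2-fold. Their median fold was 1.275, and 1.085 without the barcodes of other types, and their summed level was the higher in 6 of 10 libraries.

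The remaining CD8-gated cells comprised 2309 cells negative for Tcf7, Havcr2 and Mki67, 546 Havcr2-positive Mki67-negative cells and 699 Mki67-positive cells. The class without any of these transcripts is called triple-negative here. Klf2 fell from 342 CPM in Tcf7-positive cells to 134 CPM in triple-negative, 61.5 CPM in Havcr2-positive and 82.9 CPM in Mki67-positive cells, and Il7r from 543 to 270, 171 and 155 CPM in the same order. Gzmf ran the other way, at 30.1, 384, 996 and 566 CPM, as did Tnfrsf9, at 95.2, 268, 345 and 321 CPM, and Lgals1, at 622, 1181, 1561 and 1641 CPM. Bcl2 stood at 641 and 538 CPM in the former classes and at 285 and 248 CPM in the latter, but matched by library the Tcf7-positive and triple-negative cells had 641 and 648 CPM. Ezh2 was at 55.3, 51.6 and 53.1 CPM in the classes without Mki67 and at 174 CPM in Mki67-positive cells. These are sums over all libraries, which enter the classes in unequal parts, and the median depth was 3040, 2230, 4572 and 5025 UMIs.

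**Figure D4:**
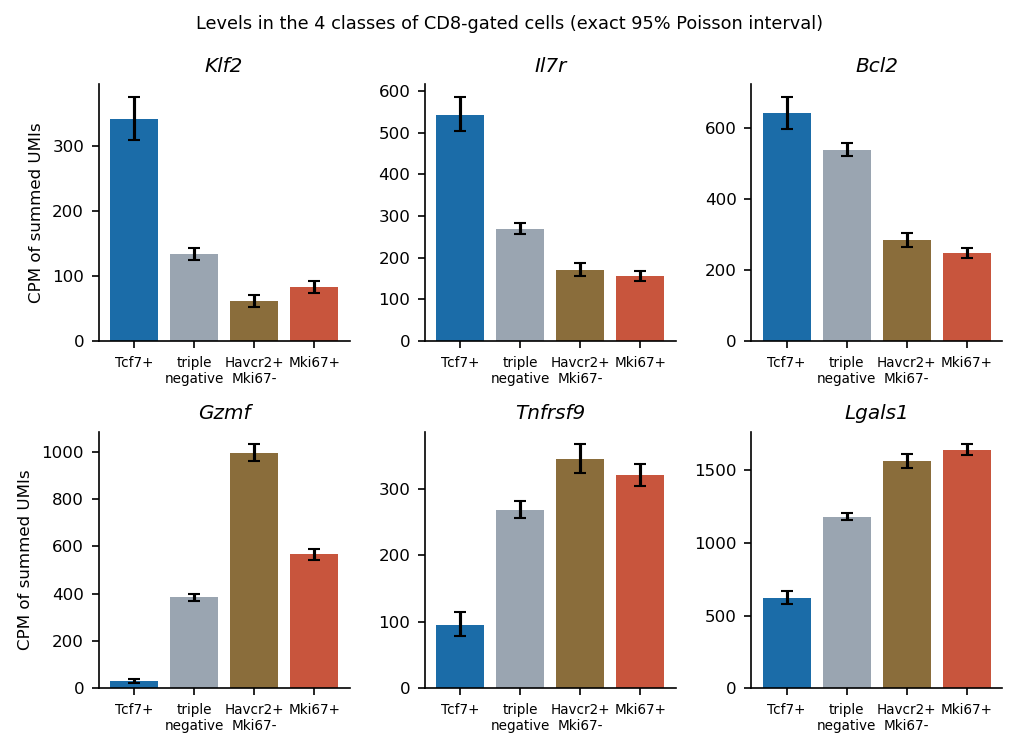
Level in CPM of summed UMIs (y axes), pooled over libraries, of 6 genes in the 4 classes of CD8-gated cells, with exact 95% Poisson intervals that cover counting only. In these pooled sums Klf2, Il7r and Bcl2 are highest and Gzmf, Tnfrsf9 and Lgals1 lowest in the Tcf7-positive cells (matched by library, Bcl2 had a fold of 0.990 over the triple-negative cells), and the triple-negative class (no Tcf7, Havcr2 or Mki67 UMI) lies between them and the other classes in each panel.

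Most Tcf7-positive cells were just inside the threshold. A single Tcf7 UMI was found in 243 of the 316 (76.9%), 2 UMIs in 52 and 3 or more in 21. The threshold therefore divides cells that can differ by 1 molecule. Triple-negative cells can include cells with unread Tcf7, and were the shallower in medians pooled over libraries, at 2230 against 3040 UMIs. Levels of some genes ran in 1 direction with the number of Tcf7 UMIs, and those of others did not. Satb1 stood at 143 CPM in triple-negative cells and at 256, 362 and 525 CPM in cells with 1, 2 and 3 or more Tcf7 UMIs, Klf2 at 134, 279, 350 and 710 CPM, and Lef1 at 37.4, 62.3, 92.4 and 104 CPM. Nkg7 ran from 2006 CPM down to 1506, 1274 and 1043 CPM and Pdcd1 from 301 CPM to 198, 169 and 104 CPM. Il7r did not rise at each step, at 270, 526, 466 and 799 CPM, nor did S1pr1, at 35.7, 82.7, 69.3 and 118 CPM. Slamf6 was at 41.8, 83.9, 73.2 and 59.2 CPM and Gzmk at 220, 284, 320 and 111 CPM. Ccr7, at 131, 193, 296 and 688 CPM, went along with Fscn1, at 24.6, 38.4, 57.8 and 244 CPM, and the part of dendritic cell transcripts in this rise was not tested. All of these are sums over libraries, which enter the steps in unequal parts, and the 21 cells of the last step came from 7 libraries. Median depth also rose with the steps, at 2230, 2768, 3841 and 5413 UMIs, and its part in these levels was not tested. The cells kept out by a single Havcr2 UMI, 11 with no Mki67, had Klf2 at 304 CPM and Il7r at 286 CPM, and S100a8 at 877 CPM.

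**Figure D5:**
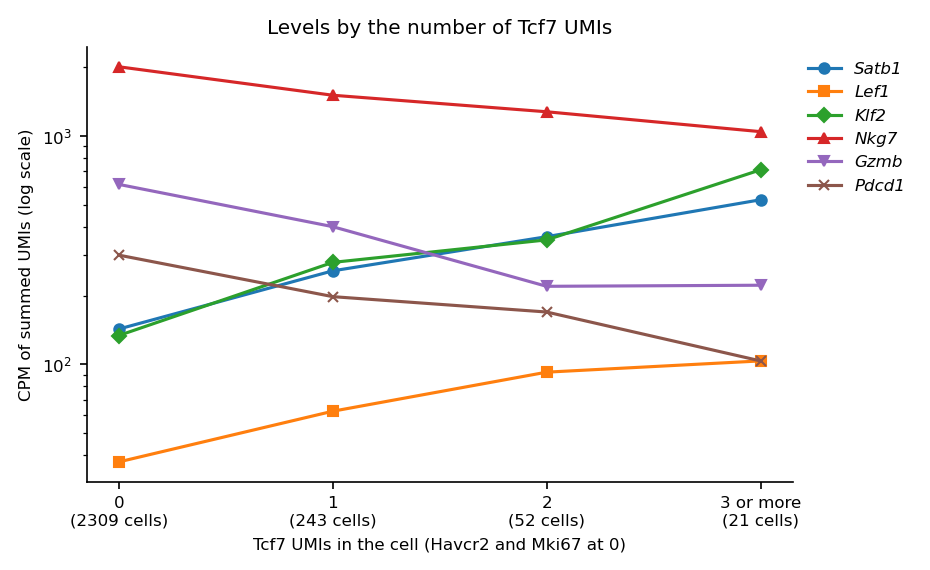
Level in CPM of summed UMIs (y axis, log scale) of 6 genes in cells without Havcr2 and Mki67, grouped by their number of Tcf7 UMIs (x axis, with cell numbers). Satb1, Lef1 and Klf2 rise and Nkg7 and Pdcd1 fall at each step, while Gzmb is level from 2 UMIs on (219 and 222 CPM).

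The Tcf7-positive cells were not uniform. At least 1 UMI of Ccr7 or Lef1 without Pdcd1 or Tox was seen in 69 cells (21.8%), both kinds together in 48 (15.2%), Pdcd1 or Tox alone in 101 (32.0%) and none of the 4 genes in 98 (31.0%). The cells with none were the shallowest, at a median of 2222 UMIs against 3254 to 4850 in the other classes. The share of the first class ran from 7.14 to 59.3% over the 10 libraries, with a median of 16.8%, and that of Pdcd1 or Tox alone from 0 to 47.4%, with a median of 37.3%, so the makeup of the Tcf7-positive cells differed widely between libraries. Genes that had not defined the classes had other levels in them, in sums over libraries, and the part of library makeup in these levels was not tested. Cells with Ccr7 or Lef1 and neither Pdcd1 nor Tox had Klf2 at 581 CPM and Il7r at 762 CPM, against 198 and 497 CPM in cells with Pdcd1 or Tox alone. The latter had more Gzmk (339 against 87.1 CPM), Nkg7 (1977 against 980.0 CPM), Ccl5 (9760 against 4345 CPM), Id2 (416 against 199.6 CPM) and Xcl1 (547 against 36.3 CPM). Gzmb differed less, at 279.5 and 313.5 CPM, and stood at 614 CPM in cells with none of the 4.

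Pairs of genes in single cells gave this division in part. Of the 74 cells with Ccr7, 28.4% had Lef1, against 17.8% of the cells without Ccr7. Of the same 74 cells, 14.9% had Gzmk and 20.3% had Gzmb, against 45.0% and 38.4% of the others. Of the 77 cells with Tox, 55.8% had Gzmk, against 32.2%, and 31.2% had Slamf6, against 18.4%. Slamf6 was found about as often in cells with Lef1 as without (21.9% and 21.4%). Gzmb was found in 37.5% of the cells with Lef1 and in 33.3% of the others. With Pdcd1 as the first gene, Gzmk was found in 39.0% against 37.5% and Gzmb in 35.0% against 33.8%. Deeper cells show more of any gene, so cells with the first gene can be the deeper ones, which can raise their share over that of the others, and these pairs were not matched for depth. Thinning each cell to 500 UMIs lowered the shares without turning the order between Tcf7-positive and remaining cells for Klf2 (14.9% against 4.90%), S1pr1 (6.33% against 1.69%), Il7r (23.1% against 11.3%), Emb (35.1% against 16.5%), Gzmb (12.7% against 20.01%) and Tnfrsf9 (4.43% against 11.8%).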

How the data were processed

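Per the labels and the file headers, the authors deposited 1 matrix of UMI counts (31053 genes, 12 libraries), with no normalization. The submitters' processing notes name Cell Ranger 2.1.1, Seurat and mm10, and the matrix header names software version 3.0.2. The number of sample columns not used was 0. CD8-gated cells were chosen by the limits given above. CPM values are summed UMIs scaled to a total of 1000000. The fold is the observed over the expected UMIs, library by library, over genes at 10 CPM or more outside the 11 genes of the rule, and 2-fold either way was the rule of size, since a pooled matrix allows no test. Shares have exact Clopper-Pearson intervals at 95%, levels exact Poisson intervals, and both cover counting error only. B-gated cells had at least 2 UMIs of Cd79a or Cd79b and 1 of Ms4a1 or of a further B cell gene not reported here, macrophage-gated cells 1 each of Adgre1 and Csf1r. No doublet caller was run here: the gate drops barcodes with Adgre1 or Csf1r, and leaving out barcodes with other types' transcripts is given as an alternative. The interval of the fold, a delta-method interval over both groups' UMIs, replaced the Poisson interval first planned. The fold was checked on simulated data. Genes named are those of the 26 gene lists and the 10 highest and 10 lowest folds, with Emb, Cmah, Gzmd and Mcpt1 added after their values were seen. The members and lists were chosen with earlier results of these data known. Analyses ran in Python 3.11.15 with pandas 2.3.3, numpy 2.4.6 and scipy 1.17.1, and matplotlib 3.10.9 drew the figures.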

Additional observations from a re-analysis of the deposited data

How the results depend on the processing

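No paired analysis was possible because no result comes from a test and no label ties a library to a mouse or a replicate number. The share of Tcf7-positive cells, 8.17%, was 7.17% with a mitochondrial limit of 5%, 1.89% with at least 2 Tcf7 UMIs, 10.3% by Tcf7 alone, 5.83% in libraries 1 to 6, 13.1% in libraries 7 to 12 and 1.63% when each cell was thinned to 500 UMIs before the rule (25 of 1537 cells). Leaving out 1 library at a time gave 7.12 to 10.6%, the highest without library 6 and the lowest without library 8. The number of genes at least 2-fold higher, 49, was 152 with at least 2 Tcf7 UMIs, 183 in libraries 1 to 6, 81 without library matching, 15 at 30 CPM or more, 322 at 1.5-fold and 424 with cells thinned to 500 UMIs, where fewer UMIs are counted. It was 48 to 97 with 1 library left out, with 97 without library 8. The number at least 2-fold lower, 368, was 868 with at least 2 Tcf7 UMIs, 82 by Tcf7 alone, 644 in libraries 1 to 6, 222 with 20 UMIs as the only level filter, 125 at 30 CPM, 910 at 1.5-fold, 171 against the Tcf7-, Havcr2- and Mki67-negative cells, 1162 with thinned cells, and 355 to 535 with 1 library left out. The 8 memory and homing genes at least 2-fold higher became 12 in libraries 1 to 6, 5 in libraries 7 to 12, 11 without library matching, 5 with library and depth matched, 5 with the mean of per-cell proportions, 4 against the Tcf7-, Havcr2- and Mki67-negative cells, 16 at 1.5-fold, and 7 to 9 with 1 library left out. The 3 effector genes at least 2-fold lower became 7 with at least 2 Tcf7 UMIs, 6 by Tcf7 alone, 5 in libraries 1 to 6, 5 in libraries 7 to 12, 5 against the Tcf7-, Havcr2- and Mki67-negative cells, 9 at 1.5-fold, and 2 to 6 with 1 library left out, with 5 without library 5 and 6 without library 8. The cause of these shifts was not tested unless named.

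An alternative chosen after seeing the data left out barcodes with transcripts of other cell types. It gave 6 effector genes at least 2-fold lower, and folds on the other side of 1 for Cd200 (0.358), Fabp5 (0.787), Il12b (0), Cxcl3 (0.995), Ccl22 (0), Clec4e (0.631) and S100a8 (0.874). With at least 2 Tcf7 UMIs the folds of Gzmc (1.09), Trem1 (0.840) and S100a8 (0.780) crossed 1, with 2 CD3 and 2 CD8 UMIs that of Il12b (0.486), and with thinned cells those of Tob1 (0.914), Clec4e (0.790) and Il12rb1 (1.46). Of 2402 folds of 89 named genes under the alternatives, 1954 stayed within the main counting interval, 434 left it without a called fold crossing 1, and these 14 crossed 1. Depth limits the rule itself: 243 of 316 cells rest on 1 Tcf7 UMI. Without mice tied to libraries, no value here carries the spread between animals.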
